A study of Mus musculus with 12 samples.

Results

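The semaphorins and ephrins, with their plexin, neuropilin and Eph receptors, were followed in mouse sciatic nerve. Members were the gene models whose symbol belongs to these families and whose mean raw count over 12 libraries was at least 10. The symbol rule matched 54 rows and 53 symbols; Efna5 stood on 2 rows, of which the one with the larger total was kept. This left 52 of 38087 gene models, namely 20 semaphorins, 9 plexins, 2 neuropilins, 8 ephrins and 13 Eph receptors, or 28 ligands and 24 receptors. Epha10, with a mean of 12.2 raw counts, lay just inside the minimum, and Epha8, with 4.67, just outside it. All 52 also passed the filter on low counts.

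The study sequenced polyA RNA from 4 groups of 3 libraries, described in the series as biological replicates. Control mice were Dhh-Cre-:Tfebflox/flox;Tfe3+, so they carried the floxed Tfeb alleles without the recombinase. The other genotype, Dhh-Cre+:Tfebflox/flox;Tfe3KO and called dKO here, is labelled as having lost Tfeb in cells of the Dhh-Cre lineage, chiefly Schwann cells, and Tfe3 in every cell. Tfeb and Tfe3 are related transcription factors that switch on lysosomal genes. For each genotype, intact nerve was the uncut nerve of the other side, and injured nerve was the segment beyond a transection made 5 days earlier. The stated purpose was to learn what Tfeb and Tfe3 do in the making of repair Schwann cells. The epineurium was removed from intact nerves per the labels' protocols, and injury and that dissection step cannot be told apart. In whole nerve, fewer cells of a type and less RNA per cell cannot be told apart either. Since the labels place the loss of Tfe3 in all cells of dKO mice, no difference between genotypes can be placed in Schwann cells alone.

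Semaphorins are secreted or membrane-bound guidance proteins. The class 3 semaphorins are secreted and mostly bind neuropilins, which pair with class A plexins as the signalling chain, whereas membrane-bound classes bind plexins directly. Ephrins are tethered to the cell surface, the A class by a lipid anchor and the B class by a transmembrane segment, and the Eph receptors that bind them are tyrosine kinases. In cut nerve, ephrin-B on fibroblasts is known to act on EphB2 of Schwann cells, which through Sox2 moves N-cadherin to the surface and sorts Schwann cells into the cords that guide regrowing axons.

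Of the 52 members, 5 differed between genotypes in their response to injury, and their starts are shown because the later results turn on them. Sema4b has 2 RefSeq starts, an upstream and a downstream one, and both are given. The sequences are RefSeq's 250 bases before each transcription start in GRCm38.p6, written 5′ to 3′ on the gene's strand, with any CACGTG in capitals. CACGTG, the core E-box that Tfeb and Tfe3 bind, reads the same on both strands.

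Ephb6, chr6:41605261-41605510, plus strand: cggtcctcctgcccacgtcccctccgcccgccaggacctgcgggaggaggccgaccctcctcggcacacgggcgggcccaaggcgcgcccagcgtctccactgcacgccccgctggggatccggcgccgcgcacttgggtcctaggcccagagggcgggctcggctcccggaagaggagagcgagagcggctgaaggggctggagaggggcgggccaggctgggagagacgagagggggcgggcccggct
Sema3g, chr14:31217623-31217872, plus strand: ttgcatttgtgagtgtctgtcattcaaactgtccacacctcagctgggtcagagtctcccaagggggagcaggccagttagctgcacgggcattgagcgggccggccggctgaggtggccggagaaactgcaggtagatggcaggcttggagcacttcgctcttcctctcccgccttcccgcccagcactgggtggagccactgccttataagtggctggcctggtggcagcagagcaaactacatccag
Epha5, chr5:84417383-84417632, minus strand: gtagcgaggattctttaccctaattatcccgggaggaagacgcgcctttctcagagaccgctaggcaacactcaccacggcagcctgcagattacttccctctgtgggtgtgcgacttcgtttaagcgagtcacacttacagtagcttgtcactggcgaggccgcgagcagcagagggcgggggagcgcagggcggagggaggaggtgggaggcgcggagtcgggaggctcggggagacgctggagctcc
Efna2, chr10:80179232-80179481, plus strand: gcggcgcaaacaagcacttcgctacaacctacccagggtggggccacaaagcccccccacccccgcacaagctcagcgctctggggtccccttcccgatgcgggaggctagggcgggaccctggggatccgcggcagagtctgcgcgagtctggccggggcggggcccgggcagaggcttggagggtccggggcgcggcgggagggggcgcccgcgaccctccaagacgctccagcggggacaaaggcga
Sema4b upstream start, chr7:80186620-80186869, plus strand: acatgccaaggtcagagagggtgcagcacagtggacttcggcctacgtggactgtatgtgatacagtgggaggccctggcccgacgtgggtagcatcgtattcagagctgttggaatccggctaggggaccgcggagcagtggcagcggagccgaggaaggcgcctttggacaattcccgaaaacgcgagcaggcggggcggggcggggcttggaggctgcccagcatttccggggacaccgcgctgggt
Sema4b downstream start, chr7:80198338-80198587, plus strand: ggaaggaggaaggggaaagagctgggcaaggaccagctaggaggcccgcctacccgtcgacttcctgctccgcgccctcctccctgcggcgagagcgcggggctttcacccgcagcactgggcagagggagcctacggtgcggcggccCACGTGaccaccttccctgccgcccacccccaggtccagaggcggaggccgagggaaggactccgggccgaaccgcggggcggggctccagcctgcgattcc

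Among these sequences the downstream Sema4b start held the motif, with its first base at position -102 from that start. The upstream Sema4b start did not hold it, nor did the starts of Ephb6, Sema3g, Epha5 and Efna2. Over windows from 250 bases before to 50 after each start, CACGTG lay in 3 of the 46 members with a RefSeq promoter, or 6.52%, against 8.09% of all genes with one. Those 3 were Sema3e, Sema4b and Sema6d. The CLEAR element, a longer palindrome that contains this E-box and is named for lysosomal genes, was in 0 of 46 members and 0.37% of all genes. TGACTCA, the AP-1 element, searched on both strands, was in Sema4c and Sema6b, or 4.35% of members against 5.95% of all genes. A match is a description of the letters, and its absence from these windows says nothing about binding elsewhere.

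Depth ran from 15430999 to 35845371 counts per library, and levels are given as CPM, counts scaled to a common library size, with the libraries of a group listed by replicate number. Myelin genes that define Schwann cells of intact nerve summed to 77696 to 101406 CPM in the 6 intact libraries. Neither targeted gene was called between genotypes. Tfeb ranged from 18.2 to 26.9 CPM in control libraries and from 14.2 to 29.8 CPM in dKO libraries. In intact nerve alone its libraries did not overlap, at 22.6 to 26.9 CPM in control and 17.0 to 19.5 CPM in dKO. The Tfeb log2 difference was -0.45 there (edgeR adjusted p = 0.856) and 0.06 at 5 days (adjusted p = 0.883). Tfe3 ranged from 55.0 to 67.6 CPM in control and, without overlap, from 43.3 to 53.8 CPM in dKO libraries, with log2 differences of -0.39 in intact nerve (edgeR adjusted p = 0.841) and -0.24 at 5 days (adjusted p = 0.126). Counts over a whole gene cannot show the loss of some exons, so the labels were not checked by them. Judged by Xist and Y-linked counts, control 5 days replicate 1 read as female and the other 11 libraries as male. It held 10712 Xist counts and also 244 counts of Y-linked genes, against 1907 to 3724 Y-linked counts in the others. Control intact replicate 2 stood apart, with perineurial markers at 246 CPM in sum against 790 to 1023 CPM in the other intact libraries and endothelial markers at 523 CPM against 886 to 1077 CPM. It lay below all 5 other intact libraries in 24 of the 52 members, or 46.2%, against 28.3% of all genes tested, and above them in 17, or 32.7%, against 27.8%. In control 5 days replicate 4 and all 3 dKO 5 days libraries, 159 to 337 of 1095 olfactory receptor genes had reads at equal depth, against 48 to 66 in the other 8 libraries. This split, a library set defined from the data and not by the labels, nearly coincides with genotype at 5 days. It coincides fully with injury in dKO nerve, where every injured library and no intact one has the high number. Values from a fit with the set as a term are therefore given beside the genotype results and for injury in dKO nerve. For each of these the set term rests on control 5 days replicate 4.

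In intact control nerve the class 3 semaphorins held most of the ligand level. Per kilobase of exon, a scale that allows genes to be compared, Sema3b was the highest member at 508 CPM per kb, followed by Sema4c at 92.4, Sema3g at 83.1 and Sema6c at 82.3. The highest receptors were Ephb6 at 50.5 CPM per kb, an EphB receptor whose kinase domain is inactive, and Plxnb1 at 42.4, the receptor of Sema4d. Sema7a, a lipid-anchored semaphorin that binds Plxnc1 and integrin beta 1, stood at 48.5 CPM per kb. Epha10, the other Eph receptor without kinase activity, was the lowest member at 0.0274 CPM per kb. Exon lengths came from a mouse annotation of the same build, which may differ from the release counted, so these levels are approximate.

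Injury changed many guidance genes in control nerve, in either direction. With edgeR's quasi-likelihood test and Benjamini-Hochberg adjustment over 22384 gene models, 14 members rose and 19 fell at an adjusted p under 0.05. That is 33 of 52, beside 46.8% of all models tested, of which 24.4% rose and 22.4% fell. The median log2 change was -0.15 over the members and 0.09 over all models. Ligands split evenly, 10 rising and 10 falling of 28, while 4 receptors rose and 9 fell of 24. In dKO nerve 11 members rose and 17 fell, or 28 of 52, beside 44.7% of all models, of which 22% rose and 22.6% fell, with a median of -0.02 over the members and 0.05 over all. With upper-quartile scaling, which moved the median of all models by 0.14 in this comparison, the dKO split was 15 higher and 15 lower. A fit with the library set as a term, which rests on control 5 days replicate 4, called 14 in dKO nerve, 3 higher and 11 lower. The 3 rises were those of Sema4f, Epha5 and Efnb2. The dKO rises of Efna4, Efna5, Epha3, Nrp1, Plxna4, Sema3a, Sema4a and Sema5b, and the falls of Efna3, Efnb3, Epha4, Nrp2, Plxna1 and Plxnb3, did not pass in that fit. In control nerve the calls of Efna5, Epha10, Plxnb3, Sema3a and Sema3f did not pass in it. Between the injury comparisons, the mean of each genotype's intact nerve entered only its own, while the spread was estimated over all 12 libraries together. Of the members, 9 rose in both genotypes (17.3%, beside 15.8% of all models), 14 fell in both (26.9%, beside 17.6%) and 0 went opposite ways (beside 0.206%). Intact and injured libraries did not overlap in 61.5% of members in control nerve, beside 53.3% of all models, and in 63.5% of members in dKO nerve, beside 61% of all models.

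Markers of several cell types moved with injury over the same libraries. In control nerve myelin genes summed to 77696 to 101406 CPM in intact and 1105 to 1418 CPM in injured libraries, with 8 of 8 lower. Markers of repair Schwann cells summed to 89.0 to 106 CPM and 1430 to 1745 CPM (8 of 8 higher), macrophage markers to 251 to 333 CPM and 2778 to 2910 CPM (8 of 10 higher), and genes of cell division to 43.0 to 53.8 CPM and 832 to 1010 CPM. In dKO nerve the same lists moved the same way, to 3776 to 4783 CPM for myelin, 891 to 982 CPM for repair Schwann cells, 736 to 851 CPM for macrophages and 338 to 375 CPM for cell division. Over the macrophage list the median log2 change was 2.20 in control and 2.10 in dKO nerve. Neuronal markers summed to 115 to 149 CPM in intact and 482 to 595 CPM in injured control nerve, but 4 of 8 fell, among them Nefl and Nefm, and 2 rose, Tubb3 and Uchl1. The part of these shifts in the guidance genes was not tested.

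**Figure D1:**
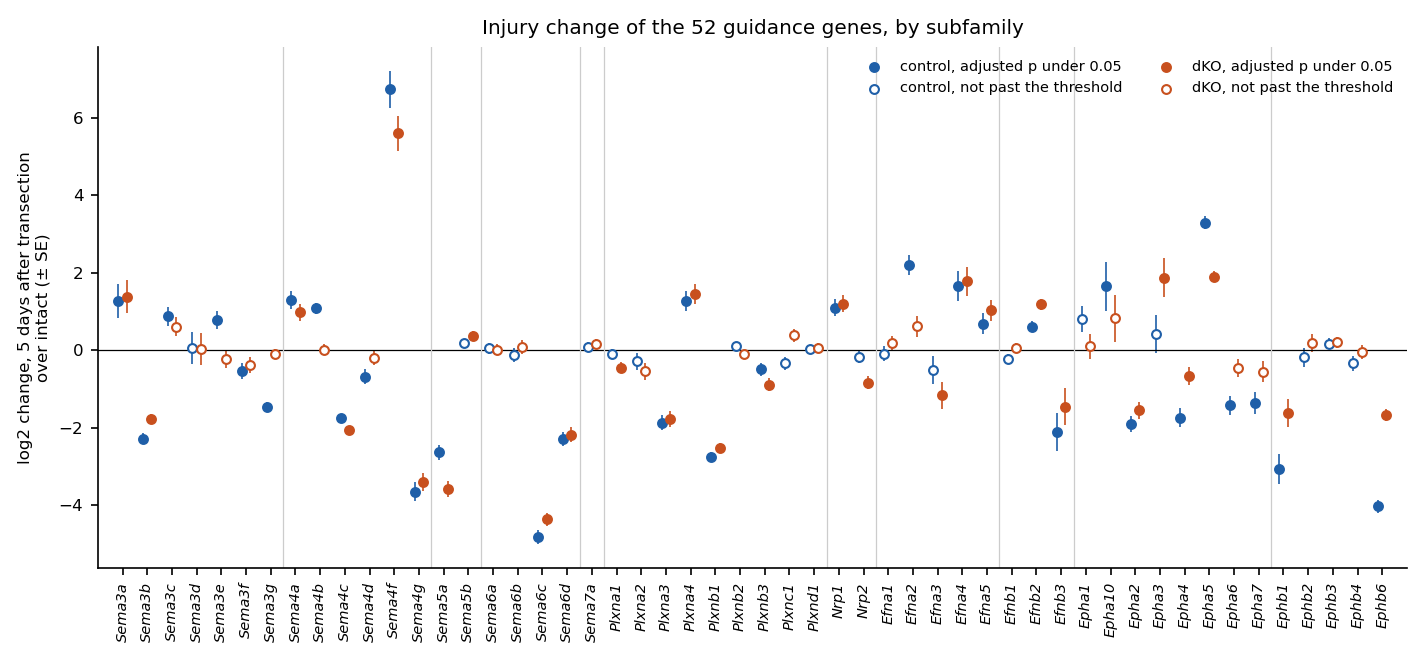
Log2 change from intact to 5 days after transection (y axis, ± SE) for the 52 members on the x axis, grouped by subfamily, with control in blue and dKO in orange; filled points passed an adjusted p of 0.05. Sema4f has the largest rise in both genotypes and Sema6c the largest fall, and Ephb6, Sema3g and Epha5 show well-separated blue and orange points.

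Among class 3 semaphorins the abundant Sema3b and Sema3g fell in control nerve, and scarcer members went either way or did not pass. Sema3b, the most abundant, counted 2102, 2829 and 2345 CPM in intact control nerve and 560, 497 and 439 CPM at 5 days, a log2 change of -2.28 (SE 0.14, adjusted p = 8.84e-09, edgeR). The groups did not overlap, and in dKO nerve Sema3b also fell, from 2294, 2527 and 2554 CPM to 719, 798 and 632 CPM, by 1.78 on the log2 scale. Sema3a, the repellent that acts through Nrp1, was scarce, with 1.32, 0.91 and 0.98 CPM in intact and 1.63, 2.42 and 3.78 CPM in injured control nerve. Its log2 rise was 1.28 (adjusted p = 0.0257) in control and 1.38 (adjusted p = 0.0164) in dKO nerve, but the control call was lost without control intact replicate 2, control intact replicate 3 or control 5 days replicate 4. Without dKO intact replicates 2 or 4 or dKO 5 days replicates 2 or 3, the dKO call was lost as well. Sema3c and Sema3e rose in control nerve by 0.88 and 0.79 on the log2 scale, and neither passed the test in dKO nerve. The Sema3c call was lost without control intact replicate 1, and that of Sema3e without control intact replicates 1 or 3 or control 5 days replicate 2. Sema3f, a ligand of Nrp2, had a log2 change of -0.53 in control nerve (adjusted p = 0.0473), a call lost on leaving out any of 8 of the 12 libraries. Sema3d did not pass in either genotype, with log2 changes of 0.06 in control (adjusted p = 0.919) and 0.02 in dKO nerve. Control intact replicate 2 read 8.89 CPM against 40.1 and 35.7 CPM in the other intact control libraries, and without it the control change turned to -0.41 (adjusted p = 0.0353).

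Among the membrane-bound semaphorins, Sema4f went from near absence to a high level. This class 4 semaphorin, studied in contact between Schwann cells and axons, counted 1.13, 0.25 and 1.51 CPM in intact control nerve and 137, 111 and 70.0 CPM at 5 days. The log2 rise was 6.74 (SE 0.48, adjusted p = 9.13e-07), the largest of any member. In dKO nerve it rose from 1.57, 1.07 and 0.71 CPM to 56.6, 44.1 and 60.9 CPM, by 5.60 on the log2 scale (SE 0.46). Sema4a rose in both genotypes, from 15.7, 12.2 and 11.8 CPM to 22.4, 35.7 and 40.0 CPM in control nerve, where its log2 change was 1.30, and by 0.97 in dKO nerve. The class 6 members Sema6c and Sema6d, transmembrane ligands of class A plexins, fell in both genotypes. Sema6c dropped from 451, 552 and 462 CPM to 15.7, 21.5 and 14.3 CPM in control nerve, a log2 change of -4.83 (SE 0.17, adjusted p = 5.79e-11), the largest fall. Sema6d went from 249, 385 and 264 CPM to 70.7, 59.1 and 52.3 CPM in control nerve, a log2 change of -2.30 there and -2.18 in dKO nerve.

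The other large falls among membrane-bound ligands were those of Sema4g, Sema5a and Sema4c. Sema4g counted 192, 259 and 209 CPM in intact and 11.4, 22.1 and 19.0 CPM in injured control nerve, with log2 changes of -3.65 in control and -3.40 in dKO nerve. Sema5a, a ligand of Plxnb3 with thrombospondin repeats, went from 418, 612 and 527 CPM to 86.8, 80.9 and 82.7 CPM in control nerve, by -2.64, and by -3.59 in dKO nerve. Sema4c, a ligand of Plxnb2 and the most abundant class 4 member, fell from 388, 426 and 459 CPM to 114, 136 and 127 CPM in control nerve, by 1.76 on the log2 scale. None of these 3 had an injured library within its intact range, beside 53.3% of all models without overlap in control nerve. Sema4d fell in control nerve by 0.68 (adjusted p = 0.00691) and had a log2 change of -0.20 in dKO nerve (adjusted p = 0.387). Sema7a read 153, 169 and 158 CPM in intact and 176, 178 and 152 CPM in injured control nerve, and 193, 145 and 147 CPM and 192, 159 and 192 CPM in dKO nerve. It passed no comparison, and Sema6a ranged from 37.2 to 62.0 CPM and passed none either.

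Plexins and neuropilins, the receptors for these ligands, had 2 members higher and 3 lower of 11 in control nerve, or 45.5%, beside 46.8% of all models. Plxnb1 fell from 329, 470 and 420 CPM to 53.9, 64.8 and 60.8 CPM, a log2 change of -2.76 (SE 0.14, adjusted p = 1.26e-09). The dKO libraries fell as well, from 383, 454 and 444 CPM to 72.7, 73.2 and 76.4 CPM. Plxna3, which pairs with neuropilins for class 3 signals, fell as well, with log2 changes of -1.87 in control and -1.77 in dKO nerve. Plxna4, of the same class, rose from 8.82, 3.39 and 6.92 CPM to 14.4, 16.3 and 15.2 CPM in control nerve, by 1.26 on the log2 scale. Nrp1, the co-receptor of Sema3a and of VEGF, rose by 1.10 in control (adjusted p = 0.00117) and 1.20 in dKO nerve (adjusted p = 0.000751). With the library set as a term the dKO calls of Nrp1, Plxna4, Nrp2, Plxna1 and Plxnb3 did not pass. Plxnd1, the receptor of Sema3e, and Plxnb2 had log2 changes between -0.10 and 0.11 in both genotypes and were not called.

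Of the 8 ephrins, the ligands of the Eph receptors, 4 rose and 1 fell in control nerve, or 62.5%, beside 46.8% of all models. Efna2 went from 4.46, 2.60 and 3.69 CPM to 19.3, 17.5 and 12.7 CPM, a log2 rise of 2.20 (SE 0.27, adjusted p = 1.06e-05). Efna4 rose from 3.40, 1.12 and 1.23 CPM to 4.38, 7.39 and 6.49 CPM in control nerve, by 1.66, and by 1.78 in dKO nerve. The transcript of an opposite-strand gene covers 10.5% of its exon bases. Such overlap is 14.1% for Efna3, whose fall was called in dKO nerve, and 7.27% for Sema4c. Strand use in counting is not given in the sources used here. Efnb2, the ephrin-B best known from arteries, rose by 0.61 in control (adjusted p = 0.00286) and 1.18 in dKO nerve (adjusted p = 1.45e-05). Efnb3 counted 95.9, 17.9 and 78.1 CPM in intact control nerve and 14.9, 17.7 and 11.8 CPM at 5 days, with a log2 change of -2.11 (adjusted p = 0.00614), and the low intact library was control intact replicate 2. Without it the change was -2.61 (adjusted p = 4.84e-09). Efna1, the ephrin-A with the highest CPM over all libraries, read 18.4, 10.6 and 15.2 CPM in intact and 15.5, 14.2 and 11.9 CPM in injured control nerve, and 17.5, 16.8 and 20.4 CPM and 22.7, 17.5 and 21.7 CPM in dKO nerve, and passed no comparison. Efna5 had a log2 change of 0.68 in control nerve (adjusted p = 0.0495), a call lost on leaving out any of 10 of the 12 libraries, and 1.03 in dKO nerve (adjusted p = 0.00639).

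Of the 13 Eph receptors, 2 rose and 6 fell in control nerve, or 61.5%, beside 46.8% of all models, and Epha5 and Ephb6 had the largest changes. Epha5, an ephrin-A receptor best known from the nervous system, rose from 21.1, 23.8 and 18.7 CPM to 234, 232 and 158 CPM, a log2 change of 3.30 (SE 0.16, adjusted p = 9.02e-10). Ephb6 fell from 174, 211 and 186 CPM to 14.4, 8.58 and 11.8 CPM, by 4.04 on the log2 scale (SE 0.16, adjusted p = 1.63e-10). Ephb1, a receptor of ephrin-B ligands, fell from 36.5, 48.7 and 40.9 CPM to 2.69, 3.46 and 9.12 CPM in control nerve, with a log2 change of -3.06 there and -1.62 in dKO nerve. Epha2 fell in both genotypes, with log2 changes of -1.91 in control and -1.56 in dKO nerve, as did Epha4, which binds ephrins of both classes, at -1.74 and -0.66. Epha6 and Epha7 fell in control nerve, at -1.42 and -1.37, and in dKO nerve they had log2 changes of -0.46 and -0.56 that did not pass the test. Epha3 passed in dKO nerve, at 1.87 (adjusted p = 0.00815), and with the library set as a term that change turned to -0.18 (adjusted p = 0.873); in control nerve it had 1.41, 1.51 and 6.04 CPM at 5 days and a change of 0.42, and the difference between genotypes was 1.45 (adjusted p = 0.34). Ephb2, the Schwann cell receptor named above, counted 68.4, 34.9 and 78.8 CPM in intact and 41.8, 58.0 and 60.5 CPM in injured control nerve and passed no comparison. Epha10 read 0.29, 0.12 and 0.18 CPM in intact and 0.31, 0.85 and 0.74 CPM in injured control nerve, and its call (log2 change 1.65, adjusted p = 0.0441) was lost on leaving out any of 11 of the 12 libraries.

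The largest changes were also seen library by library in dKO nerve. Sema6c fell from 535, 537 and 608 CPM to 29.6, 23.2 and 28.5 CPM, Sema4g from 199, 213 and 239 CPM to 23.1, 22.4 and 15.7 CPM, and Sema5a from 418, 340 and 385 CPM to 39.3, 33.5 and 21.7 CPM. Sema6d went from 210, 258 and 299.5 CPM to 59.5, 59.9 and 49.97 CPM, and Sema4c from 499, 488 and 449 CPM to 113, 102 and 127 CPM. All 5 had every injured library below every intact one, as in control nerve. Intact and injured dKO libraries did not overlap, in either direction, in 61% of all models. The rises were of scarcer genes. Sema4a rose from 22.5, 24.7 and 14.0 CPM to 36.4, 44.9 and 38.9 CPM, Plxna4 from 6.28, 7.20 and 7.81 CPM to 17.5, 21.6 and 19.0 CPM, and Efna4 from 2.26, 2.50 and 2.38 CPM to 7.82, 6.64 and 10.2 CPM. Sema3a read 1.34, 2.23 and 0.82 CPM in intact and 4.56, 4.25 and 2.60 CPM in injured dKO nerve. Ephb1 fell in dKO nerve from 35.9, 38.8 and 44.4 CPM, and Epha10 read 0.19, 0.40 and 0.31 CPM in intact and 0.45, 0.72 and 0.40 CPM in injured dKO nerve.

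In intact nerve no guidance gene passed the test between genotypes. The edgeR test called 0 of 52 members, beside 0.00447% of all models, while 7 members had an unadjusted p under 0.05, and DESeq2 and limma-voom also called 0. The median log2 difference was 0.09 over the members and -0.01 over all models. Intact libraries of the 2 genotypes did not overlap in 5 members, or 9.62%, against 14.6% of all models.

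Members called between genotypes after injury were not called before it, and intact libraries not listed elsewhere are given here. Efnb1, Sema5a, Sema6b and Ephb4 had intact differences of the same sign as at 5 days, with an unadjusted edgeR p under 0.05. Their intact log2 differences were 0.36, -0.45, 0.42 and 0.42. For Sema5a the difference of injury changes was -0.96 and was not called (edgeR adjusted p = 0.0678). Nrp2 counted 205, 229 and 210 CPM in intact control and 144, 218 and 214 CPM in intact dKO nerve, and Plxnb3 140, 229 and 207 CPM against 152, 179 and 182 CPM. Plxna1 read 89.7, 111 and 95.2 CPM against 72.0, 88.7 and 95.8 CPM, Plxnc1 10.6, 11.9 and 9.98 CPM against 12.7, 10.3 and 10.6 CPM, and Ephb4 89.2, 49.3 and 75.2 CPM against 106, 94.4 and 85.2 CPM. Among the ligands, Sema3e read 11.8, 21.99 and 12.4 CPM against 10.8, 16.1 and 13.3 CPM, and Sema6b 20.96, 14.8 and 20.9 CPM against 31.4, 25.5 and 19.0 CPM. Efnb1 was an exception to overlap, with 119, 81.9 and 106 CPM in control below 144, 120 and 130 CPM in dKO nerve, a log2 difference of 0.36 that did not pass (adjusted p = 0.85).

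At 5 days 9 members were higher and 8 lower in dKO than in control nerve. That is 17 of 52, beside 12.1% of all models tested, of which 3.12% were higher and 8.97% lower. The median log2 difference was 0.29 over the members and -0.02 over all models. Of the ligands 5 were higher and 4 lower, and of the receptors 4 and 4. Upper-quartile scaling, which shifted the median of all models by 0.11, gave 11 higher and 6 lower. The count was 11 without control 5 days replicate 2, 10 without dKO 5 days replicate 2, and 24, of which 15 higher, without control intact replicate 2, which enters through the shared estimate of spread. With the library set as a term, which rests on 1 control library in the second set, 5 of the 17 passed: Ephb6, Sema3g and Sema6c higher, and Epha5 and Sema5a lower. With sex as a term, 12 of the 17 passed, while Sema6c (adjusted p = 0.0526), Ephb1, Ephb4, Plxnb3 and Sema6b did not. Control 5 days replicate 1 is the only female library, so the sex term gave the same calls as leaving it out. Ephb6, Sema3g, Epha5 and Sema5a passed with the set term and with the sex term. In 11 of the 17 (64.7%) the control library nearest the dKO mean was replicate 4, the control library of that set, as in 64.4% of all called models. Control and dKO libraries did not overlap at 5 days in 51.9% of members, beside 30.5% of all models.

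**Figure D2:**
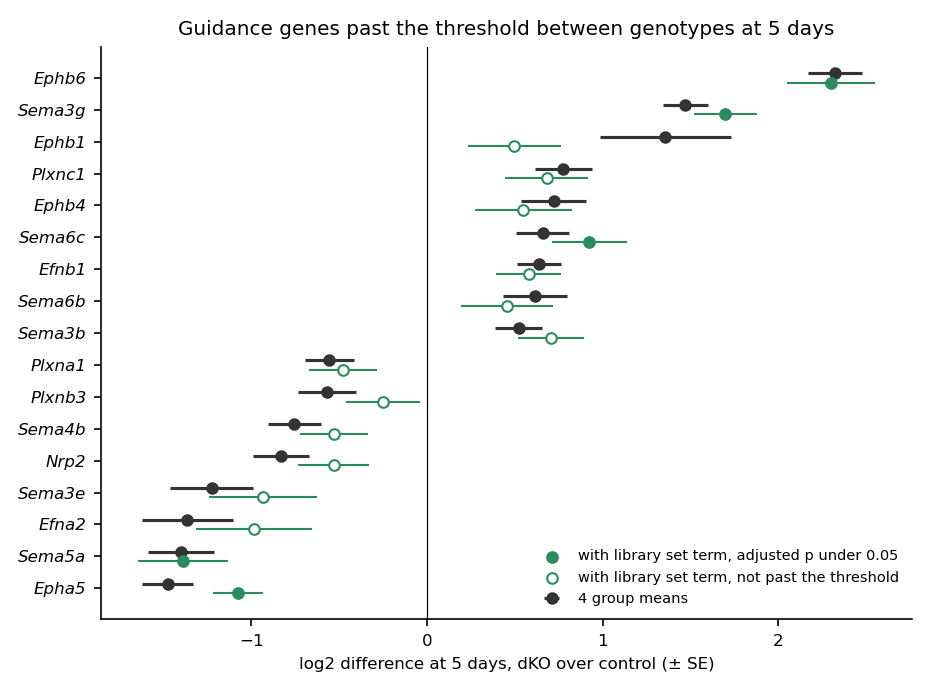
Log2 difference between dKO and control nerve at 5 days (x axis, ± SE) for the 17 members past an adjusted p of 0.05, in the fit of 4 group means (black) and with the library set as a term (green, filled where still past the threshold). Ephb6 lies farthest to the right and Epha5 farthest to the left, and the 5 filled green points are Ephb6, Sema3g, Sema6c, Sema5a and Epha5.

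Among the ligands higher in dKO, Sema3g stood out. This secreted semaphorin, which binds Nrp2, counted 145, 147 and 116 CPM in control against 366, 352 and 414 CPM in dKO nerve at 5 days, a log2 difference of 1.47 (SE 0.13, adjusted p = 7.38e-06). All dKO libraries lay above all control libraries, and with the library set as a term the difference was 1.70 (adjusted p = 0.00032). Sema6c read 15.7, 21.5 and 14.3 CPM in control against 29.6, 23.2 and 28.5 CPM in dKO, with a difference of 0.66 (adjusted p = 0.0119) that was not called without control 5 days replicate 1 or dKO 5 days replicate 2. Sema3b, given above, had a difference of 0.52 (adjusted p = 0.0202), lost without control 5 days replicates 2 or 4 or dKO 5 days replicates 2 or 3. Efnb1, an X-linked ephrin-B that was the most abundant ephrin, read 86.8, 84.0 and 91.1 CPM in control against 128, 136 and 145 CPM in dKO, with no overlap, a difference of 0.64 (adjusted p = 0.00411). With the set term Efnb1 kept a difference of 0.58 and did not pass (adjusted p = 0.168). Sema6b had a difference of 0.61 (16.0, 16.7 and 19.3 against 27.2, 25.8 and 26.7 CPM), with an adjusted p of 0.0411 that did not hold on leaving out any of 7 of the 12 libraries.

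Ligands lower in dKO were Sema5a, Efna2, Sema3e and Sema4b. Sema5a counted 86.8, 80.9 and 82.7 CPM in control against 39.3, 33.5 and 21.7 CPM in dKO nerve, a log2 difference of -1.40 (SE 0.19, adjusted p = 0.000277), and -1.39 with the set term (adjusted p = 0.0141). Efna2 read 19.3, 17.5 and 12.7 CPM against 6.40, 6.53 and 6.30 CPM, a difference of -1.36 (adjusted p = 0.00358). Sema3e, the ligand of Plxnd1, read 26.4, 31.6 and 21.7 CPM against 11.4, 12.03 and 10.6 CPM, a difference of -1.23 (adjusted p = 0.00359). For these members no control library lay within the dKO range, beside 30.5% of all models without overlap at 5 days. Sema4b, a transmembrane class 4 semaphorin, counted 48.9, 49.5 and 39.3 CPM in control against 28.6, 27.1 and 25.9 CPM in dKO, a difference of -0.75 (adjusted p = 0.00485). With the set term Efna2, Sema3e and Sema4b had differences of -0.98, -0.93 and -0.53, and none of the 3 passed.

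Receptors higher in dKO were Ephb6, Ephb1, Ephb4 and Plxnc1. Ephb6 counted 14.4, 8.58 and 11.8 CPM in control against 60.8, 58.3 and 55.3 CPM in dKO nerve at 5 days, a log2 difference of 2.33 (SE 0.15, adjusted p = 4.9e-07), and 2.30 with the set term (adjusted p = 0.000348). Ephb1 read 2.69, 3.46 and 9.12 CPM against 14.8, 14.1 and 9.47 CPM, and control replicate 4 was the library nearest to the dKO values. Its difference was 1.36 (adjusted p = 0.0373), a call lost on leaving out any of 9 of the 12 libraries, and 0.50 with the set term. Ephb4, the EphB receptor of veins, counted 47.8, 57.5 and 63.3 CPM against 104, 79.5 and 94.5 CPM, a difference of 0.72 (adjusted p = 0.0227) that was lost without control 5 days replicates 1 or 2 or dKO 5 days replicates 2 or 4. Plxnc1, a receptor of Sema7a, read 7.48, 9.02 and 9.12 CPM against 13.9, 15.9 and 14.0 CPM, a difference of 0.78 (adjusted p = 0.00642). Control and dKO libraries did not overlap in any of these 4 receptors.

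Receptors lower in dKO were Epha5, Nrp2, Plxnb3 and Plxna1. Epha5 counted 234, 232 and 158 CPM in control against 78.9, 66.2 and 79.5 CPM in dKO nerve, a log2 difference of -1.48 (SE 0.15, adjusted p = 2.04e-05), and -1.08 with the set term (adjusted p = 0.00148). Nrp2, the co-receptor of Sema3f and Sema3g, read 207, 210 and 155 CPM against 94.3, 110 and 118 CPM, a difference of -0.83 (adjusted p = 0.00377). Plxnb3, the receptor of Sema5a, read 153, 147 and 109 CPM against 90.2, 90.3 and 95.4 CPM, a difference of -0.57 (adjusted p = 0.0388) lost on leaving out any of 8 of the 12 libraries. Plxna1 read 81.9, 107 and 87.3 CPM against 55.0, 69.9 and 62.9 CPM, a difference of -0.56 (adjusted p = 0.0173) lost without control 5 days replicate 2 or dKO 5 days replicate 2. An opposite-strand gene covers 10.7% of the Plxna1 exon bases. Nrp2, Plxnb3 and Plxna1 did not pass with the set term, where their differences were -0.53, -0.25 and -0.48.

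Markers of several cell types also differed between genotypes at 5 days. Myelin genes summed to 1105 to 1418 CPM in control against 3776 to 4783 CPM in dKO nerve, and 7 of 8 were called higher. Schwann cell markers summed to 2839 to 4127 CPM and 1607 to 1760 CPM, with 5 of 8 lower, and markers of repair Schwann cells to 1430 to 1745 CPM and 891 to 982 CPM, with 5 of 8 lower. Genes of cell division summed to 832 to 1010 CPM and 338 to 375 CPM, with 8 of 8 lower. Macrophage markers summed to 2778 to 2910 CPM and 736 to 851 CPM, with 2 of 10 lower and a median log2 difference of -0.04 over the list. Fibroblast markers summed to 6557 to 9795 CPM and 11185 to 12452 CPM, with 1 of 8 higher. Neuronal markers summed to 482 to 595 CPM and 247 to 324 CPM, with 2 of 8 lower, Uchl1 by a log2 difference of -1.07 and Tubb3 of -0.82, while the median over the list was 0.47. Endothelial markers, of interest beside Ephb4 and Sema3g, which vessels are known to express, summed to 631 to 738 CPM and 860 to 1180 CPM. The edgeR test called 0 of these 10, while 7 had an unadjusted p under 0.05, and DESeq2 called 5 and limma-voom 0. Vessel wall markers summed to 560 to 772 CPM in control and to 2541, 624 and 966 CPM in the dKO libraries, where dKO 5 days replicate 2 stood far above the others, with 0 of 8 called by edgeR, 5 at an unadjusted p under 0.05, 4 called by DESeq2 and 0 by limma-voom. Perineurial markers summed to 525 to 587 CPM and 647 to 728 CPM, and 0 of 5 were called by edgeR, by DESeq2 or by limma-voom, with 0 at an unadjusted p under 0.05. No marker of these lists was at 0 in a whole group. The part of these shifts in the guidance genes was not tested.

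The response to injury itself differed between genotypes for 5 members, taken as the injury change in dKO minus that in control. That is 5 of 52 beside 2.9% of all models tested. Of the 5, 2 were higher, beside 0.737%, and 3 lower, beside 2.17%, with a median of 0.12 over the members and -0.03 over all. For Ephb6 the difference was 2.36 on the log2 scale (SE 0.21, adjusted p = 2.32e-05). Its intact levels overlapped, at 174, 211 and 186 CPM in control against 198, 180 and 179 CPM in dKO, and it fell by 4.04 in control nerve and fell by 1.67 in dKO nerve. Sema3g had a difference of 1.37 (SE 0.18, adjusted p = 0.000832). It fell in control nerve from 319, 432 and 381 CPM by 1.47, whereas in dKO nerve it went from 412, 383 and 419 CPM to 366, 352 and 414 CPM, a log2 change of -0.10 that did not pass (adjusted p = 0.541).

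The other 3 rose in control nerve and had a smaller log2 change in dKO nerve, where only the rise of Epha5 was called. Epha5 rose by 3.30 in control and 1.90 in dKO nerve, where the intact libraries read 21.2, 18.8 and 20.03 CPM, and the difference was -1.40 (SE 0.21, adjusted p = 0.00199). Sema4b rose in control nerve from 20.6, 20.2 and 24.6 CPM by 1.08 and had a log2 change of 0.02 in dKO nerve, where intact libraries read 33.3, 24.8 and 22.7 CPM, a difference of -1.06 (adjusted p = 0.0145). Efna2, whose intact dKO libraries read 5.17, 4.63 and 2.78 CPM, rose by 2.20 in control and had a log2 change of 0.61 in dKO nerve (adjusted p = 0.0723), a difference of -1.59 (adjusted p = 0.0328). The Efna2 call was lost on leaving out any of 9 of the 12 libraries and with sex as a term (adjusted p = 0.0649). With the set term Ephb6, Sema3g and Epha5 were still called, at 2.34, 1.60 and -1.0. Upper-quartile scaling called 2 higher and 2 lower, without Efna2. The count was 8 without control intact replicate 2 and also 8 without control 5 days replicate 4. Over the 33 members called for injury in control nerve, 32 had the same sign in dKO nerve (97.0%, beside 95.3% of all models called in control) and 24 a smaller size there (72.7%, beside 73.7%). Of the 28 called in dKO nerve, 14 had a smaller size in control (50%, beside 52.1% of all models called in dKO), so these shares lay near those of all models.

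**Figure D3:**
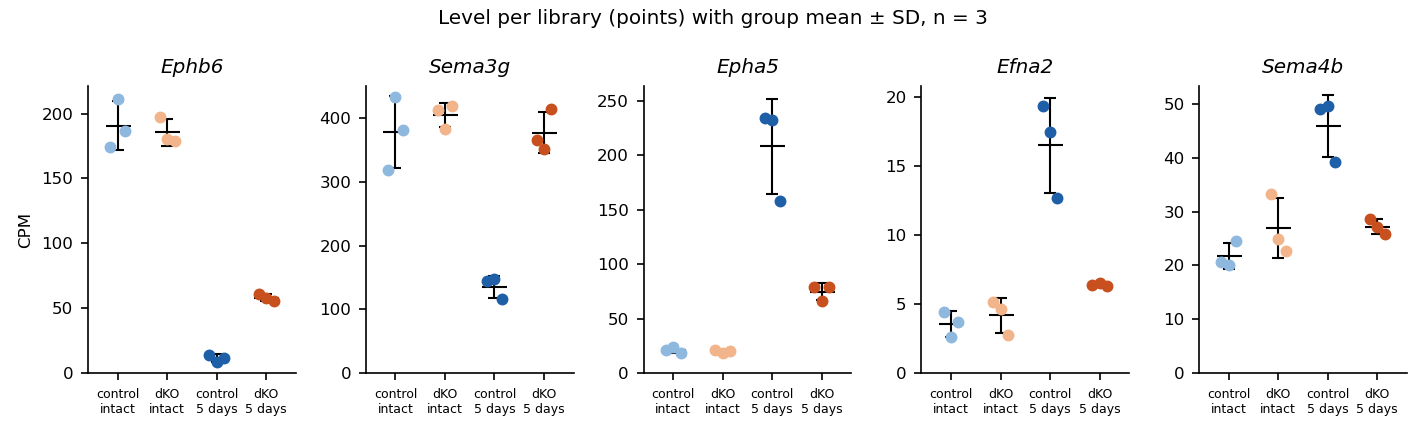
Level in CPM (y axis, from 0) of the 5 members whose injury change differed between genotypes, in each library of the 4 groups on the x axis, with the group mean ± SD (n = 3). In all 5 panels the intact groups overlap, and at 5 days the dKO points lie above control for Ephb6 and Sema3g and below it for Epha5, Efna2 and Sema4b.

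Levels were also summed by role, with no test of the sums. Ligand levels summed to 1007 ± 91.8 CPM per kb in intact control nerve and 361 ± 25.8 at 5 days (SD, n = 3), and to 1056 ± 21.3 and 475 ± 0.32 in dKO nerve. Receptor levels summed to 265 ± 13.9 and 163 ± 11.3 CPM per kb in control, and to 269 ± 6.71 and 171 ± 2.33 in dKO nerve. The ligand sum follows a few abundant genes. Sema3b held 508 of the 1007 CPM per kb in intact control nerve and 104 of the 361 at 5 days. Of the ligand CPM, not scaled by length, it made 44.5% ± 1.91 in intact control nerve and 28.1% ± 2.02 at 5 days. The class 3 sum went from 608 ± 87.2 to 154 ± 14.3 CPM per kb in control and from 624 ± 30.0 to 254 ± 12.8 in dKO nerve. The ephrin-A sum moved the other way in control nerve, from 14.6 ± 4.65 to 24.0 ± 1.75 CPM per kb, and from 18.7 ± 0.66 to 26.9 ± 2.42 in dKO nerve.

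**Figure D4:**
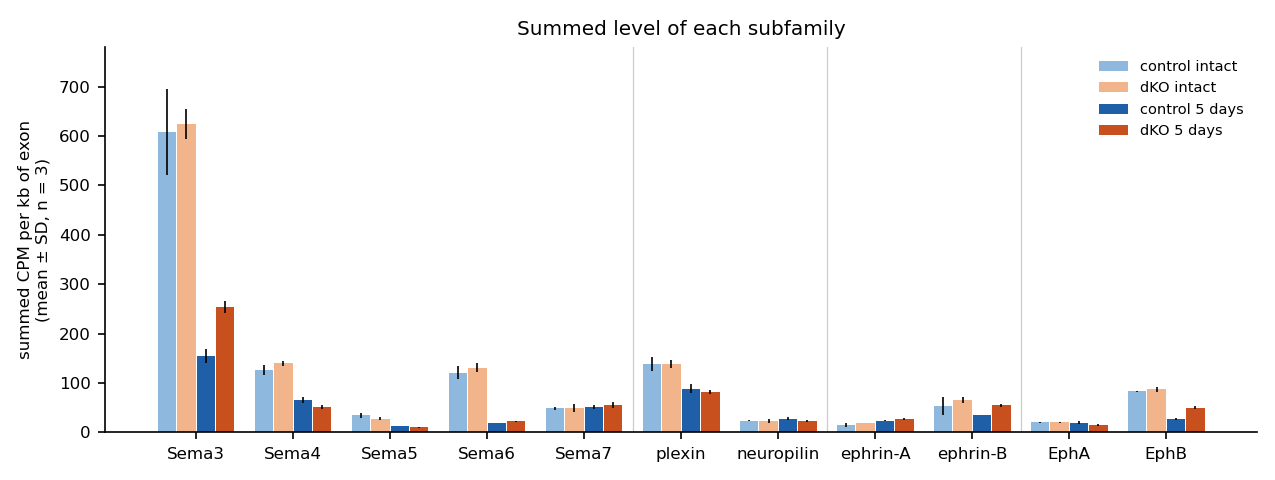
Summed CPM per kb of exon (y axis, from 0; mean ± SD, n = 3) for each subfamily on the x axis in the 4 groups. The class 3 semaphorin bars are the tallest in each group and are lower at 5 days than in intact nerve, and the EphB bar at 5 days is higher in dKO than in control.

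The share of a subfamily's CPM held by its leading genes was different before and after injury, again as a description with no test. Ephb6 made 47.2% ± 7.45 of the EphB CPM in intact control nerve, 6.84% ± 2.41 at 5 days in control and 20.4% ± 1.54 at 5 days in dKO nerve. Epha5 made 17.2% ± 1.83 of the EphA CPM in intact control nerve and 83.4% ± 5.45 at 5 days. In dKO nerve at 5 days it made 56.3% ± 7.54. Shares of CPM are not scaled by length, and Epha5 has the most exon bases of the EphA receptors, 16739. Per kilobase, Epha5 held 1.27 of the EphA sum of 20.3 CPM per kb in intact control nerve. At 5 days it held 12.4 of 19.99 CPM per kb in control and 4.47 of 15.2 in dKO nerve. The EphA CPM went from 123 to 248 in control nerve, a rise not seen per kilobase. For Sema3g the share of class 3 CPM at 5 days was 17.4% ± 1.02 in control and 30.7% ± 4.24 in dKO nerve. Efna2 made 29.9% ± 5.10 of ephrin-A CPM in control against 10.1% ± 0.91 in dKO nerve at 5 days. Plxnb1 made 35.9% ± 2.74 of plexin CPM in intact control nerve and 8.78% ± 1.13 at 5 days.

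Genes that act with the semaphorin receptors also changed with injury, 10 higher and 10 lower of 28 in control nerve (71.4%, beside 46.8% of all models), and 8 and 12 in dKO nerve (71.4%, beside 44.7%). The adhesion protein Nrcam, a partner of neuropilins, rose in control nerve by 2.23 and Dpysl3, a collapsin response mediator, by 1.90, while Mical3, an oxidising enzyme of the actin regulators that bind plexins, fell by 1.37. At 5 days 2 of the 28 were higher and 4 lower in dKO (21.4%, beside 12.1% of all models). Nrcam had 399 ± 45.4 CPM in control against 154 ± 18.02 CPM in dKO (SD, n = 3), a log2 difference of -1.37 (adjusted p = 6.42e-05). Met, the receptor kinase that associates with plexin-B, had 240 ± 75.7 CPM against 61.8 ± 8.82 CPM, a difference of -1.95 (adjusted p = 0.000524). The injury responses of Mical3, Nrcam and Met differed between genotypes, by -0.87, -1.15 and -1.62. In intact nerve 0 of the 28 were called by edgeR, DESeq2 or limma-voom, and 2 had an unadjusted p under 0.05.

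Of 26 genes that act with Eph receptors and ephrins, 9 rose and 10 fell in control nerve (73.1%, beside 46.8% of all models), and 10 rose and 12 fell in dKO nerve (84.6%, beside 44.7%). Sox2, the transcription factor downstream of EphB2, rose by 3.34 in control and 2.04 in dKO nerve, and Chn2, a Rac regulator, had log2 changes of -2.33 and -2.05. At 5 days 1 was higher and 6 lower in dKO (26.9%, beside 12.1% of all models). Sox2 had 141 ± 29.3 CPM in control against 59.1 ± 3.50 CPM in dKO nerve, a log2 difference of -1.26 (adjusted p = 0.000102). Cdh2, or N-cadherin, had 53.2 ± 9.20 CPM in control against 20.3 ± 2.68 CPM in dKO nerve, a difference of -1.39 (adjusted p = 0.00135). Cdh2 fell with injury in both genotypes, with log2 changes of -1.29 in control and -2.52 in dKO. The injury responses of Abl2, a kinase of the actin cytoskeleton, Sox2 and Cdh2 differed, by -1.01, -1.31 and -1.23. In intact nerve 0 of the 26 were called by edgeR, DESeq2 or limma-voom, and 5 had an unadjusted p under 0.05.

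Genes of other guidance systems were counted in the same way. Of 12 netrin, Slit and repulsive guidance ligands, 1 rose and 3 fell with injury in control nerve (33.3%, beside 46.8% of all models) and 1 and 2 in dKO nerve (25%, beside 44.7%). At 5 days Slit3 was higher in dKO by 0.79 (adjusted p = 0.00336) and Slit2 lower by a log2 difference of -0.73 (adjusted p = 0.0264). Of the 10 tested receptors of these ligands, 2 rose and 1 fell in control nerve (30%, beside 46.8%), and 6 rose and 1 fell in dKO nerve (70%, beside 44.7%). At 5 days edgeR called 0 of the 10 between genotypes, with 5 at an unadjusted p under 0.05, while DESeq2 called 3 and limma-voom 5. Robo2, a Slit receptor, rose by 1.59 in control and 1.70 in dKO nerve. Of 8 VEGF ligands and receptors, which share Nrp1 and Nrp2 with the class 3 semaphorins, 1 rose and 2 fell in control (37.5%, beside 46.8%) and 0 and 3 in dKO nerve (37.5%, beside 44.7%). Vegfb was lower in dKO at 5 days, by a log2 difference of -0.75 (adjusted p = 0.00068), and its injury response differed by -0.73 (adjusted p = 0.0228), while Flt1 was higher by 0.44 (adjusted p = 0.0491).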

How the data were processed

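The authors deposited raw counts per gene model, and these counts were the only values tested for the main results. They also deposited normalized values, a signal that equals each library's raw count times a constant (within 0.926% at raw counts above 50), which served only an alternative. The submitters' processing notes name the mm10 build, DESeq2 and R 4.2.1; no source used here gives the aligner, the annotation release or whether counting used strand. Libraries held 15430999 to 35845371 counts, which limits the precision of the scarce members most. The members, gene lists and tests were chosen with earlier results of these data known.

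Here the counts were fitted with edgeR 4.0.16 in R 4.3.3: filterByExpr with a minimum count of 10, TMM scaling, robust quasi-likelihood with a mean for each of the 4 groups over all 12 libraries, and Benjamini-Hochberg adjustment over 22384 tested models, with a threshold of 0.05. The 5 comparisons were injury in each genotype, genotype in intact nerve and at 5 days, and the difference of the injury changes. CPM used TMM effective library sizes, and CPM per kb the exon length of GENCODE M21 (GRCm38), in which all 52 members matched one gene each. The SE of a log2 change is its size over the square root of the F statistic. The code was tested on simulated counts. The nerves' tie to animals across groups is not given in the labels, so p-values measure the spread between libraries. All counts of calls beside a gene list name up to 4 genes by smallest p. Every library's value is given for members called between genotypes, for the 8 largest rises and 8 largest falls with injury in control nerve, and for the member of each subfamily with the highest mean CPM. Alternatives were DESeq2 1.42.0, limma-voom and limma-trend 3.58.1 (log2 of the normalized value plus 1), other scalings and filters, terms for library set, sex and replicate number, the compared groups alone, each library left out, and an adjusted p under 0.01.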

Additional observations from a re-analysis of the deposited data

Results flagged for a closer look

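The injury change differed between genotypes, by the test of the difference itself in edgeR, for 5 members. Ephb6, the EphB receptor without kinase activity, had an injury change in dKO minus control of 2.36 on the log2 scale (adjusted p = 2.32e-05), and no dKO library at 5 days lay within the control range. Sema3g had a difference of 1.37 (adjusted p = 0.000832), and Epha5 one of -1.40 (adjusted p = 0.00199). These 3 were called under each of the 23 alternatives, with adjusted p of at most 0.00162, 0.00628 and 0.0254. Sex as a term and the omission of control 5 days replicate 1, the only female library, are not separate checks among them. Sema4b had a difference of -1.06 (adjusted p = 0.0145), not called with the library set as a term (adjusted p = 0.195) or at an adjusted p under 0.01. Efna2 had a difference of -1.59 (adjusted p = 0.0328), not called under 14 of the 23 alternatives. All dKO injured libraries belong to the library set with many olfactory receptor genes read, and 1 control injured library does.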

How the results depend on the processing

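The signs of the 33 changes called for injury in control nerve, the 17 genotype differences called at 5 days and the 5 differences of injury changes held under every alternative run. Of the 28 called for injury in dKO nerve, Epha3 turned from 1.87 to -0.18 with the library set as a term. Among members not called, Sema3d turned from 0.06 to -0.41 in control nerve, and was called, without control intact replicate 2. With an adjusted p under 0.01, the rises with injury in control nerve were 9, the calls at 5 days 10 (4 higher) and those for the difference of injury changes 3 (1 lower). The library set as a term left 14 calls for injury in dKO nerve (3 higher, 11 lower), 5 at 5 days (3 higher, 2 lower) and 3 for the difference (1 lower). DESeq2 called 9 members for the difference, 5 of them higher. Leaving out each library in turn gave 28 to 33 calls for injury in control nerve (11 to 14 higher, 17 to 22 lower), 23 to 29 in dKO nerve (9 to 11 higher, 13 to 18 lower), 0 for genotype in intact nerve, 10 to 24 at 5 days (4 to 15 higher, 6 to 9 lower) and 4 to 8 for the difference (2 to 4 higher, 2 to 4 lower). Upper-quartile scaling shifted the median of all models by 0.14 for injury in dKO nerve, 0.11 at 5 days and 0.13 for the difference. The causes were not tested. The labels do not say what shared replicate numbers mean, and correlations of same-numbered libraries' deviations ran from -0.181 to 0.2. Control intact replicate 1 read as male and control 5 days replicate 1 as female, so by these counts that number does not mark the same mouse. With the replicate number as a block, 12 of the 17 calls at 5 days held, 5 higher and 7 lower, and the counts were 29 for injury in control nerve, 29 in dKO nerve and 5 for the difference. The compared groups alone cannot give the difference. Epha10, at 12.2 raw counts on average, lost its injury call in control nerve in 11 of 12 library omissions. Efna5, at 469 raw counts, lost its call there in 10 of 12, and Sema3a, at 65.7, in 3 of 12. Whether depth played a part was not tested.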
